A study of Mus musculus with 2 samples.

Results

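Acid secretion by the parietal cell is set by receptors on its basolateral face, and 9 genes of such receptors were examined in parietal cells sorted from the stomachs of C57BL/6 mice on a high fat diet (HFD) or on the control diet. The 9 genes were Hrh2, Chrm3, Chrm1, Cckbr, Sstr1, Sstr2, Ptger3, Ptger4 and Casr, taken by symbol as receptors for histamine, acetylcholine, gastrin, somatostatin, prostaglandin E2 and extracellular calcium. All 9 were found among the 38087 gene identifiers of the deposited tables. Each diet was represented by 1 library of total RNA depleted of ribosomal RNA. No mouse carried a genetic change named in the labels; the composition and duration of the diets, the number, age and sex of the mice and the surface markers used for the sort are not stated in the labels. With 1 library per diet the difference between the diets had no replicate check, so every difference below is between these libraries and carries no p-value.

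Histamine from enterochromaffin-like cells acts on the H2 receptor, which couples to the Gs protein and raises cyclic AMP. Acetylcholine from vagal endings acts on the M3 receptor, and gastrin on the CCK2 receptor, both through Gq and intracellular calcium. Somatostatin and prostaglandin E2 restrain secretion, largely through receptors coupled to Gi, which lower cyclic AMP. These signals meet at the proton pump, whose subunits are encoded by Atp4a and Atp4b.

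Levels are in RPKM, reads per kilobase of gene and per depth of the library in M reads, and a gene at or below 1 RPKM was listed as 0. Depth, read off the steps between low values, came to 25.5 M reads in the HFD library, against 9.84 M reads in the control library, so a gene of the same length and level rested on more reads in the HFD library. Intervals are 95% intervals of the estimated reads (exact Poisson for a level, exact conditional binomial for a ratio). They cover counting error only, and they may be too narrow because the estimated reads are approximate. Atp4a stood at 4997 RPKM in the HFD library, compared with 4324 RPKM in the control library. All 15 parietal markers were listed in both libraries. Markers of other cells were present too, with the chief cell gene Pgc at 45624 RPKM in the HFD library and 102292 RPKM in the control library. The source cell of a receptor transcript therefore cannot be assigned, and fewer cells of a type cannot be told apart from less RNA per cell.

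The receptor genes differed between the libraries in opposite directions. The Hrh2 level in the HFD library was 2.39 times that in the control library, whereas Chrm3 was 2.15 times lower there. Cckbr was at 0 in the HFD table and Sstr1 at 0 in the control table. In each library 8 of the 9 genes lay above the floor, beside 49.6% of 21160 protein-coding genes in the HFD library and, for the control library, 54.3%; the genes had been chosen with earlier results of these data known. Among the 7 genes listed in both libraries, 4 were higher (background 47.8% of protein-coding genes) and 3 lower (background 52.2%) in the HFD library; their median log2 ratio was 0.22, beside -0.04 over all 9997 protein-coding genes listed in both. Over all 21 genes of the same receptor families, 9 were listed in both libraries, with 4 higher and 5 lower in the HFD library and a median of -0.16, so the sign of the median depends on which family members are counted. Over 2-fold higher was 1 of the 7 (background 7% of those genes), and over 2-fold lower was 1 of the 7 (background 12.5%).

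**Figure D1:**
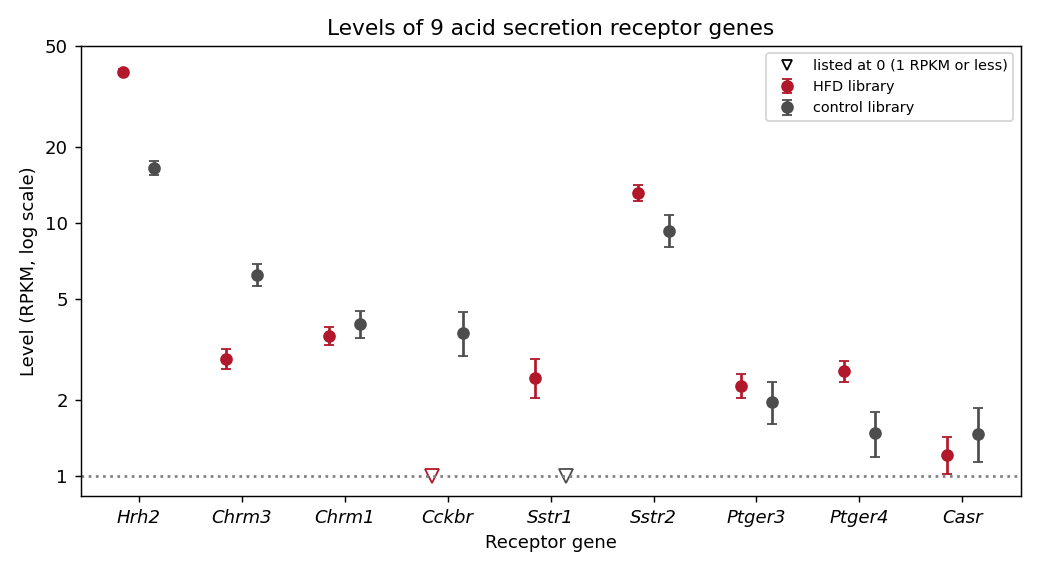
Level in RPKM (log axis) of each receptor gene in the HFD library (red, left of each pair) and the control library (grey), with 95% counting intervals; open triangles at the floor of 1 RPKM mark genes listed at 0. Hrh2 stands highest in both libraries, at 39.5 RPKM (HFD) and 16.5 RPKM (control), and Chrm3 shows the opposite order, at 2.90 RPKM (HFD) and 6.24 RPKM (control).

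Hrh2 encodes the histamine H2 receptor, the target of the H2 blockers used against gastric acid (ENSMUSG00000034987, chromosome 13, 54192129 to 54236180, plus strand, mm10). It stood at 39.5 RPKM in the HFD library (38.5 to 40.5; 5969 estimated reads) and at 16.5 RPKM in the control library (15.5 to 17.6; 962 estimated reads). The ratio was 2.39 (2.24 to 2.57), and the intervals of the levels did not overlap. Hrh2 was the most abundant of the 9 genes in both libraries. It ranked at percentile 92.1 of the protein-coding genes listed in the HFD library and at percentile 77.6 of those listed in the control library. With both libraries set to their total less the 20 most abundant genes of either, the ratio was 1.61, below 2-fold. Some 2.44% of the exon bases of Hrh2 overlap Gm16578 on the other strand, which stood at 3.70 RPKM in the HFD library, compared with 2.96 RPKM in the control library. Relative to Atp4a in the same library, the Hrh2 level was 0.789% in the HFD library, against 0.381% in the control library, a ratio of 2.07. Among the 15 parietal markers, ratios ran between 0.907 and 2.96 with a median of 1.39, and 2 of the 15 had a ratio above that of Hrh2.

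The genes nearest to Hrh2 in both levels, by Euclidean distance over the 2 log2 values, were Dbn1 (distance 0.025), Myo1a (0.057), Tmem161b (0.088), Ufc1 (0.0998) and Dst (0.101). Dbn1, which encodes the actin-binding protein drebrin, stood at 39.2 RPKM in the HFD library, compared with 16.2 RPKM in the control library. Myo1a, a microvillar myosin gene, stood at 39.4 RPKM in the HFD library, compared with 17.1 RPKM in the control library. Likeness over 2 libraries says only that both levels were close.

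Chrm3 encodes the muscarinic M3 receptor, the main route of vagal stimulation (ENSMUSG00000046159, chromosome 13, 9875486 to 10360847, minus strand). It stood at 2.90 RPKM in the HFD library (2.65 to 3.18; 463 estimated reads) and at 6.24 RPKM in the control library (5.63 to 6.90; 384 estimated reads). The ratio was 0.466 (0.405 to 0.534), and the levels' intervals did not overlap. Scaled to the total of protein-coding genes it was 0.571, and with a pseudocount of 1 RPKM it was 0.539, in both cases no longer 2-fold lower. Smooth muscle, which also uses the M3 receptor, had 7 of 7 markers lower in the HFD library (background 52.2% of protein-coding genes). Their summed levels were 27.6 RPKM in the HFD library and 186 RPKM in the control library. The part of such cells in the Chrm3 difference was not tested. All 8 markers of enteric neurons and glia were listed at 0 in both libraries, as were 43.4% of protein-coding genes. A value of 0 means at or below 1 RPKM, so it does not show that such cells were absent.

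Chrm1, the M1 receptor gene, had a ratio near 1 (ENSMUSG00000032773, chromosome 19, 8663789 to 8683587, plus strand). It stood at 3.56 RPKM in the HFD library (3.28 to 3.86) and 3.97 RPKM in the control library (3.51 to 4.50), for a ratio of 0.896 (0.771 to 1.04). The interval of the ratio includes 1. In the HFD library Chrm1 stood above Chrm3, and in the control library below it. Chrm2, Chrm4 and Chrm5, the other muscarinic receptor genes, were listed at 0 in both libraries, as were 43.4% of protein-coding genes.

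Cckbr encodes the CCK2 receptor for gastrin, found on enterochromaffin-like cells as well as parietal cells (ENSMUSG00000030898, chromosome 7, 105425731 to 105470898, plus strand). Its HFD value was listed at 0, and it stood at 3.67 RPKM in the control library (2.99 to 4.44; 103 estimated reads). At the floor, a gene of its exon length of 2862 bases would hold 73.0 reads in the HFD library and 28.1 reads in the control library, so a value of 0 allows reads below that number and no fold is given. Of the protein-coding genes listed in either library, 12.4% were listed in the control library only. Beside this, 9 of the 11 gastric endocrine markers listed in both libraries were lower in the HFD library (background 52.2% of protein-coding genes). The 15 markers summed to 1229.9 RPKM in the HFD library and 8352 RPKM in the control library. The ghrelin gene Ghrl was the largest part of these sums, at 707 RPKM in the HFD library and 5913 RPKM in the control library. The defining genes of enterochromaffin-like cells were among them: Hdc, which makes histamine, stood at 2.06 RPKM in the HFD library, compared with 18.5 RPKM in the control library, and Slc18a2, which loads histamine into vesicles, at 3.43 RPKM in the HFD library, compared with 17.2 RPKM in the control library. Pcsk1 and Scg5 were listed at 0 in the HFD library, Neurod1 at 0 in the control library and Pax6 at 0 in both. The part of endocrine cells in the Cckbr difference was not tested. Cckar, the gene of the related CCK1 receptor, was more abundant than Cckbr in both libraries, at 29.1 RPKM in the HFD library, compared with 38.9 RPKM in the control library (ratio 0.747, interval 0.700 to 0.797).

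The somatostatin receptor genes were led by Sstr2, whose product is the main somatostatin receptor of the acid-secreting mucosa (ENSMUSG00000047904, chromosome 11, 113619342 to 113626028, plus strand). Sstr2 stood at 13.1 RPKM in the HFD library (12.2 to 14.1; 716 estimated reads) and 9.30 RPKM in the control library (8.04 to 10.7; 196 estimated reads). The ratio was 1.41 (1.20 to 1.66), and Sstr2 was second to Hrh2 in both libraries. On the total less the 20 most abundant genes of either library, the ratio was 0.948. Sstr1 (ENSMUSG00000035431, chromosome 12, 58211772 to 58214444, plus strand) stood at 2.43 RPKM in the HFD library (2.03 to 2.90; 127 estimated reads) and was listed at 0 in the control library, where the floor equals 20.1 reads at its exon length of 2046 bases. Of the protein-coding genes listed in either library, 4.07% were listed in the HFD library only. Sstr3, Sstr4 and Sstr5 were listed at 0 in both libraries. Their ligand gene Sst stood at 149.6 RPKM in the HFD library, compared with 1046 RPKM in the control library. In the values as deposited Sst went the other way from Sstr2, whose direction depends on the scaling.

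Of the prostaglandin E2 receptors, EP3 couples to Gi and EP4 to Gs. Ptger3, the EP3 gene (ENSMUSG00000040016, chromosome 3, 157566892 to 157645888, plus strand), stood at 2.27 RPKM in the HFD library (2.03 to 2.53) and 1.96 RPKM in the control library (1.60 to 2.35). Its ratio of 1.16 (0.935 to 1.46) had an interval that includes 1. Ptger4, the EP4 gene (ENSMUSG00000039942, chromosome 15, 5206661 to 5244187, minus strand), stood at 2.59 RPKM in the HFD library (2.35 to 2.84) and 1.47 RPKM in the control library (1.19 to 1.79). The Ptger4 ratio was 1.76 (1.41 to 2.22), with no overlap of the levels' intervals, and 2.16 when scaled to the total of protein-coding genes. Some 15.3% of the exon bases of Ptger4 overlap Gm15937 on the other strand, which was listed at 0 in both libraries, and 1.23% overlap Ttc33, which stood at 2.91 RPKM in the HFD library, compared with 8.42 RPKM in the control library. Ptger2 was listed at 0 in both libraries.

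Casr, the calcium-sensing receptor gene, was the lowest of the receptor genes listed in both libraries (ENSMUSG00000051980, chromosome 16, 36493696 to 36562141, minus strand). It stood at 1.21 RPKM in the HFD library (1.02 to 1.42) and 1.46 RPKM in the control library (1.14 to 1.86), close to the floor in each. The ratio of 0.827 (0.613 to 1.11) had an interval that includes 1.

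Within each library the order of the receptor levels could be read only in part. In the HFD library the order was Hrh2, Sstr2, Chrm1, Chrm3, Ptger4, Sstr1, Ptger3 and Casr, and the intervals of neighbours overlapped for Chrm3 with Ptger4, Ptger4 with Sstr1, and Sstr1 with Ptger3. In the control library it was Hrh2, Sstr2, Chrm3, Chrm1, Cckbr, Ptger3, Ptger4 and Casr, and the intervals of neighbours overlapped for Chrm1 with Cckbr, Ptger3 with Ptger4, and Ptger4 with Casr.

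Comparing receptors inside a library removes the scale of the library from the comparison. Sums set side by side between the libraries still carry that scale, and they take a gene listed at 0 as 0. The 9 genes summed to 67.5 RPKM in the HFD library and 44.5 RPKM in the control library, and without Hrh2 to 28.1 RPKM in each. The rescalings multiply the HFD sums by 1.03, 1.23 and 0.673, so the equal sums without Hrh2 hold only for the values as deposited. Hrh2 made up 58.4% of the sum in the HFD library, against 37.0% in the control library. Chrm3 held 4.30% in the HFD library, against 14.0% in the control library, while Sstr2 held similar shares, 19.4% in the HFD library, against 20.9% in the control library. The Hrh2 level was 13.6 times that of Chrm3 in the HFD library, against 2.64 times in the control library, so this balance differed 5.14-fold, being higher in the HFD library (interval 4.42 to 5.99, from the estimated reads on a log scale). Hrh2 and Chrm3 had the highest and lowest ratios of the receptors listed in both libraries. The pair is therefore the widest of the set, and the interval leaves out that choice. The balance of Hrh2 to Sstr2 was 3.01 in the HFD library, against 1.77 in the control library, that is 1.70 times as high (1.43 to 2.02). For Hrh2 to Ptger4 it was 15.2 in the HFD library, against 11.2 in the control library, 1.36 times as high (1.08 to 1.72). Since Hrh2 had the highest ratio, each balance with Hrh2 on top had to be higher in the HFD library. These balances restate the Hrh2 difference and add no separate result. Set relative to Atp4a, the ratio was 1.52 for Ptger4, 1.22 for Sstr2, 1.00 for Ptger3, 0.775 for Chrm1, 0.716 for Casr and 0.403 for Chrm3.

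**Figure D2:**
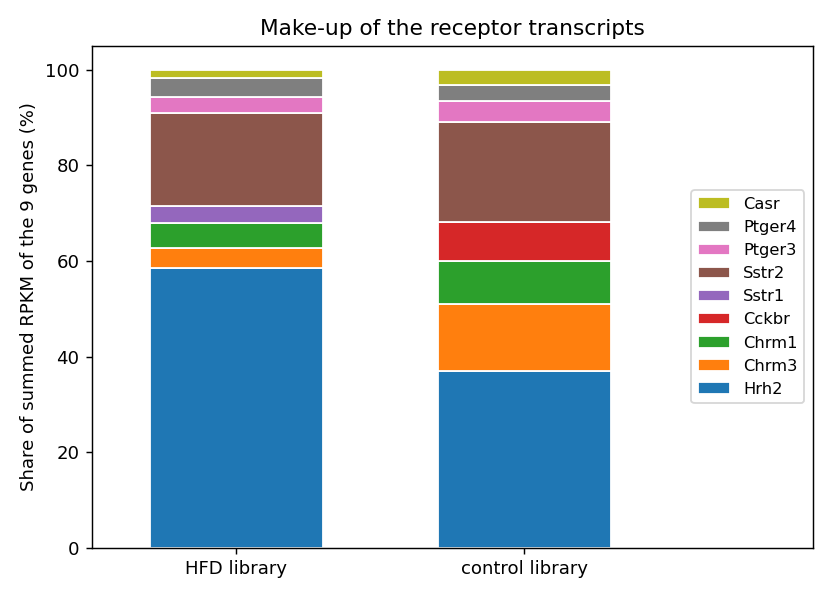
Share (%) of the summed RPKM of the 9 receptor genes held by each gene, in the HFD library (left bar) and the control library (right bar); a gene listed at 0 has no segment. Hrh2 fills 58.4% of the HFD bar and 37.0% of the control bar, and Chrm3 4.30% of the HFD bar and 14.0% of the control bar.

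**Figure D3:**
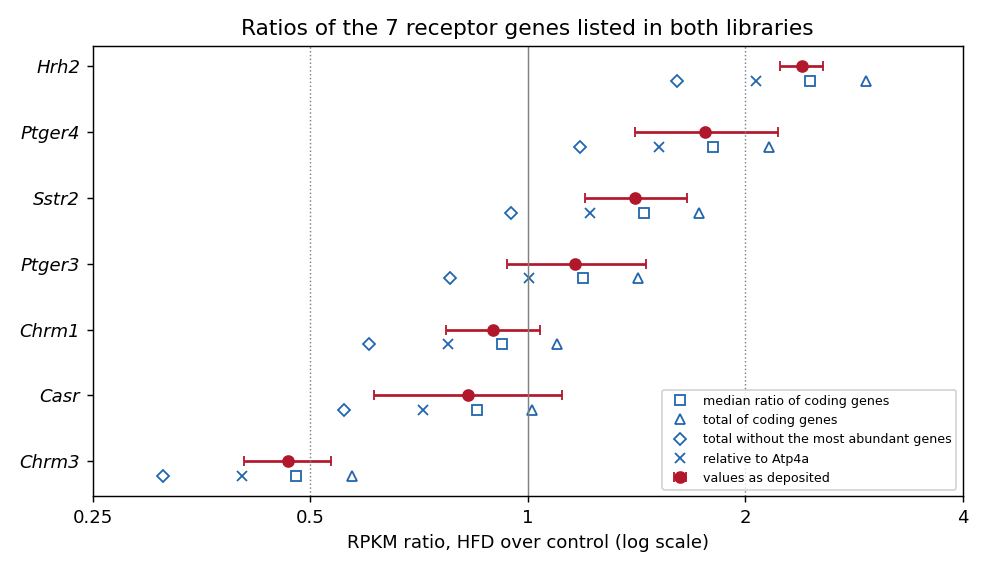
RPKM ratio, HFD over control (log axis), of the 7 genes listed in both libraries, with 95% counting intervals (red) and the value under 3 rescalings and relative to Atp4a (blue marks just below); dotted lines mark 2-fold. Hrh2 and Ptger4 stay above 1 and Chrm3 below 1 under each of these settings, while Sstr2, Ptger3, Chrm1 and Casr lie on both sides of 1.

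Beyond these families, the receptor genes for other regulators of the gastric mucosa also went both ways. Sctr, the secretin receptor gene, stood at 40.9 RPKM in the HFD library, compared with 14.9 RPKM in the control library (ratio 2.75, interval 2.43 to 3.11), a level like that of Hrh2. Glp1r, the receptor gene for glucagon-like peptide, stood at 10.7 RPKM in the HFD library, compared with 34.2 RPKM in the control library, 3.19 times lower in the HFD library. Adora1, an adenosine receptor gene coupled to Gi, had a ratio of 1.47, with 20.1% of its exon bases overlapping Mybph on the other strand, and Adcyap1r1, the receptor gene for the peptide PACAP, had a ratio of 1.502. Of these 19 genes, 10 were listed in neither library (background 43.4%), 5 in both, 1 in the HFD library only and 3 in the control library only. Of protein-coding genes listed in either library, 4.07% were in the HFD library only and 12.4% in the control library only.

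On the ligand side, transcripts for histamine and somatostatin supply were lower in the HFD library, while the ratio of the gastrin gene was near 1. Of 19 genes for ligands, their processing and their breakdown, 11 were listed in both libraries, with 4 higher (background 47.8%) and 7 lower (background 52.2%) in the HFD library (list median log2 ratio -0.66). Over 2-fold lower were 5 of the 11 (background 12.5%) and over 2-fold higher 1 (background 7%). Gast stood at 118.5 RPKM in the HFD library, compared with 102.3 RPKM in the control library, for a ratio of 1.16 (1.04 to 1.29). Relative to Atp4a its ratio was 1.00. Its log2 ratio of 0.21 is smaller than the rescaling shift of -0.57, so its direction depends on the scaling. Cpe, which trims peptide hormones, stood at 2.82 RPKM in the HFD library, compared with 27.5 RPKM in the control library, the lowest ratio of the list. Pam, which amidates peptides such as gastrin, stood at 15.7 RPKM in the HFD library, compared with 24.7 RPKM in the control library. Bche, a cholinesterase gene, had the highest ratio at 2.41, and Hpgd, which inactivates prostaglandins, had 1.12. Ptgs1, the constitutive cyclooxygenase gene, stood at 1.21 RPKM in the HFD library, compared with 4.98 RPKM in the control library, and Ptgs2, the inducible one, was listed at 0 in both. Hdc, Slc18a2, Pcsk1, Sst and Gast are also on the endocrine marker list, whose summed levels are given above.

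Below the receptors, each signalling list held genes that were higher and genes that were lower in the HFD library. In the Gs and cyclic AMP list 14 of 25 genes were listed in both libraries, with 6 higher (background 47.8%) and 8 lower (background 52.2%) in the HFD library (median log2 ratio -0.14). Adcy6, the most abundant adenylyl cyclase gene, stood at 53.8 RPKM in the HFD library, compared with 73.0 RPKM in the control library. Prkaca, the main catalytic subunit of protein kinase A, had a ratio of 1.00, and its regulatory partners Prkar1a and Prkar2a had 0.652 and 0.892. Adcy2 had the highest ratio at 3.67, from 5.61 RPKM in the HFD library, compared with 1.53 RPKM in the control library. Gnas, the Gs alpha subunit gene, lies in a locus of overlapping transcripts, so its level depends on the counting rule; it had the lowest at 0.445, from 1.74 RPKM in the HFD library, compared with 3.92 RPKM in the control library.

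The calcium list had 19 of 24 genes listed in both libraries, with 9 higher (background 47.8%) and 10 lower (background 52.2%) in the HFD library (list median log2 ratio -0.15). Atp2a2, the calcium pump of the endoplasmic reticulum, had a ratio of 1.07, and Itpr3, the inositol trisphosphate receptor, had 1.14. Calm2, a calmodulin gene, had 0.711. The extremes were the calmodulin kinase genes Camk2g at 0.443 and Camk2d at 1.91. In the Gi list 12 of 19 genes were listed in both, with 3 higher and 9 lower (same backgrounds, median -0.31). The abundant subunits Gnai2, Gnai3, Gnb1 and Gnb2 had ratios of 0.702, 0.926, 0.797 and 0.818. The regulators of G protein signalling Rgs3 and Rgs19 marked the ends at 0.370 and 2.35. Of 7 genes of receptor desensitisation, 5 were listed in both, with 3 higher and 2 lower (same backgrounds, median 0.15). Grk6 and the arrestin genes Arrb1 and Arrb2 had ratios of 1.32, 1.11 and 1.81, and the receptor kinase genes Grk2 and Grk5 had 0.577 and 0.419.

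**Figure D4:**
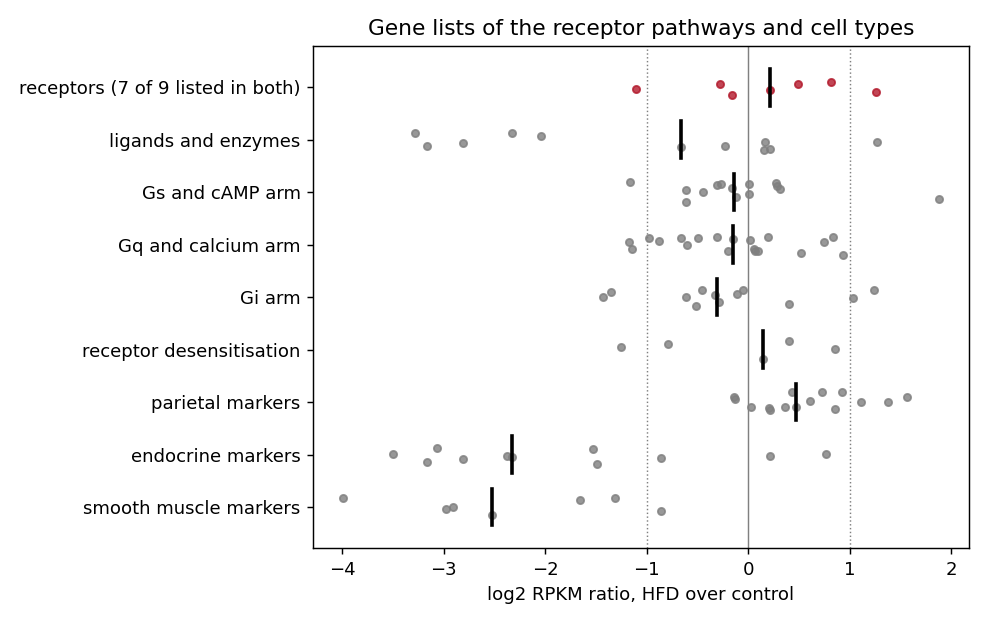
Log2 RPKM ratio, HFD over control, of each gene listed in both libraries (points) and the median of its list (black bars), for the receptors (red), the ligand and signalling lists and 3 marker lists; dotted lines mark 2-fold. The receptor median lies at 0.22, the signalling medians between -0.31 and 0.15, and those of endocrine and smooth muscle markers at -2.33 and -2.53.

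The rescalings moved all ratios together, by 0.04, 0.29 and -0.57 on the log2 scale, with the median of protein-coding genes then at 0.00, 0.25 and -0.61. The medians of the receptors, the other receptors, the Gs, calcium and desensitisation lists and the parietal markers lie within these shifts, so their sign depends on the scaling. Those of the ligand side, the Gi list, the endocrine and the smooth muscle markers keep it. Other markers of the sorted sample also differed. Pit cell markers summed to 36056 RPKM in the HFD library and 14515 RPKM in the control library, but Gkn1 and Gkn2 carried most of this difference, and the list median was 0.39 on the log2 scale. Of 8 leukocyte markers 3 were listed, all 3 over 2-fold higher in the HFD library (background 7%). Pancreatic acinar markers summed to 1797 RPKM in the HFD library and 13552 RPKM in the control library. Clps alone made 1790 RPKM of the HFD sum and 12989 RPKM of the control sum. Of the 8 acinar markers, 6 were listed in the control library only (background 12.4%), and the other 2 had a median of -3.29. Fibroblast markers were lower in the HFD library in 5 of 5 genes listed in both, and endothelial markers in 3 of 3 (background 52.2%). Their part in the receptor differences was not tested.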

How the data were processed

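RNA was measured in 1 library per diet of sorted parietal cells, prepared with an Ion Total RNA-Seq kit after removal of ribosomal RNA, per the labels' protocols. Of the authors' steps, bedtools 2.25.0 and build mm10 are named in the submitters' processing notes; no aligner, counting rule or annotation release is given in the sources used here. The deposited values are log2 of RPKM per the file headers and the values, with no pseudocount: the largest was 18.2, and the lowest listed value was 1.0006 RPKM in the HFD library and 1.0013 RPKM in the control library. Depth was estimated as the step at which RPKM times exon length of genes with 1 exon is whole; at up to 12 steps, 49.7% of 189 values in the HFD library and 35.8% of 724 in the control library were whole within 0.005. The share is too low to recover counts for all genes, so no count model was used. For genes with 1 transcript and more than 1 exon, 38.9% of HFD values and 23.0% of control values below 60 reads were whole within 0.05. Estimated reads of all listed genes summed to 28.2 M in the HFD library and 11.2 M in the control library, above the estimated depths. Why they exceed the depths was not tested. Symbols, positions and merged exon lengths came from GENCODE M21 (mm10), which matched 36308 identifiers; 1779 did not match. Slc18a3 of the ligand list was not analysed here. Estimated reads are RPKM times length times depth, so intervals are approximate where the annotation used by the authors differs, and without molecular identifiers reads may be copies of 1 molecule. Ratios are of RPKM as deposited, for genes listed in both libraries. Receptors and lists were chosen with earlier results of these data known. Named genes were the 9 receptors, their listed family members, the 4 most abundant and the 2 extreme genes of each pathway list (at least 50 estimated reads), and the 5 genes nearest to Hrh2; Hdc, Slc18a2, Ptgs1, Pcsk1, Scg5, Neurod1, Pax6 and the genes overlapping a receptor were added after their values were seen, and some values that the rule would name are not reported here. Calculations used Python 3.11.15, pandas 2.3.3 and scipy 1.17.1 and were tested on simulated data. Alternatives were 3 rescalings, levels relative to Atp4a, 2 pseudocounts (1 and 0.1 RPKM), other minimums (2 and 5 RPKM), 0 entered as 1 RPKM, and a fold of 1.5.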

Additional observations from a re-analysis of the deposited data

How the results depend on the processing

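Of the 7 receptors listed in both libraries, Hrh2, Chrm3 and Ptger4 kept their direction under all 6 alternatives for the ratio, with ranges of 1.61 to 2.93 for Hrh2, 0.313 to 0.571 for Chrm3 and 1.18 to 2.16 for Ptger4. Sstr2, Ptger3, Chrm1 and Casr each changed direction under 1 of the 6. One receptor was over 2-fold higher in the HFD library as deposited; this number was 2 with 0 entered as 1 RPKM, with a pseudocount of 1 or 0.1 RPKM, scaled to the total of protein-coding genes or at a fold of 1.5, and 0 on the total less the 20 most abundant genes of either library. One was over 2-fold lower; this number was 2 with 0 entered as 1 RPKM or with a pseudocount of 0.1 RPKM, and 0 scaled to the total of protein-coding genes. With a pseudocount of 1 RPKM it stayed at 1, but the gene was Cckbr in place of Chrm3, whose ratio was then 0.539. At a minimum of 5 RPKM, the HFD library listed 2 receptors and the control library 3; at 2 RPKM the control library listed 5. The rescalings multiply the HFD values by 1 number, and entering a 0 adds Sstr1 and Cckbr to the ratios; other causes were not tested. The medians of 18 lists, the 9 receptors included, kept their sign both at a minimum of 5 RPKM in a library and with 0 entered as 1 RPKM (36 values). No paired analysis was possible because each diet has 1 library. Depth limits the low receptors: at the floor Casr would hold 120.3 reads in the HFD library, against 46.4 in the control library, and no variation between mice can be seen.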
